A study of Mus musculus with 8 samples.

Results

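miR-221 and miR-222 are a pair of microRNAs (miRNAs) that are cut from neighbouring hairpins on the mouse X chromosome. Each hairpin gives a 5′ arm and a 3′ arm, so the pair is represented by 4 mature miRNAs, mmu-miR-221-3p, mmu-miR-221-5p, mmu-miR-222-3p and mmu-miR-222-5p. These members were chosen by name, and all 4 were found among the 697 miRNAs listed in the data. The data are small RNA libraries of isolated mouse cardiomyocytes, 4 from sham-operated mice (Sham1 to Sham4) and 4 from mice with transverse aortic constriction (TAC1 to TAC4), a surgical narrowing of the aorta that overloads the left ventricle and leads to heart failure. The mice were males operated on at 2 months of age, and the cells were taken 14 weeks after surgery; the strain was not given in the sources used here. The labels name no transgene, allele or drug in either group, and the groups differ in the operation. Each library came from the cardiomyocytes of 1 heart, so the replicates are separate mice. The miRNA counts of a sham library summed to between 4005668 and 5392576, and those of a TAC library to between 5507169 and 7798943.

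miRNAs guide Argonaute proteins to messenger RNAs, mainly through the seed, bases 2 to 8 of the mature miRNA, and lower the stability or translation of those targets. miR-221 and miR-222 are transcribed together and are best known from vessels, where they are expressed in endothelial and smooth muscle cells. Their 3p arms repress Kit, the receptor of stem cell factor, and Cdkn1b and Cdkn1c, inhibitors of the cell cycle. The 5p arms come from the opposite side of the same hairpins and carry different seeds.

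The 3p arms are shown first because they share a seed. The seed is in capitals in each sequence, written 5′ to 3′ as RefSeq gives it on GRCm38.p6.
mmu-miR-221-3p: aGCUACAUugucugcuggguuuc
mmu-miR-222-3p: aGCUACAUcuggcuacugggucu
mmu-miR-221-5p: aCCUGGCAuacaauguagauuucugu
The 3p arms are each 23 bases long. They are identical over their first 8 bases and at 11 positions in all when set side by side without gaps. Counted from 1 at the 5′ end, the first difference from miR-221-3p to miR-222-3p is U9C, directly after the seed, and the last is C23U. In RefSeq the seed GCUACAU is also that of miR-1928, which is not among the counted miRNAs. The 5p arm of miR-221 has the seed CCUGGCA, which no other mouse miRNA of the RefSeq table used here shares. RefSeq gave a mature sequence for 3 of the 4 members and for 593 of the 697 listed miRNAs.

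The hairpins are shown to place the arms, with the mature sequences in capitals.
Mir221: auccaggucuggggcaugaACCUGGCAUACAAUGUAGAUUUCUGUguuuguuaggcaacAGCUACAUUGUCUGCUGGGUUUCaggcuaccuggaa
Mir222: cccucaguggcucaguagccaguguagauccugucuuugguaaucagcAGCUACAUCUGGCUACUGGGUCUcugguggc
Mir221 lies at chrX:19146294-19146388 and Mir222 at chrX:19146893-19146971, both on the minus strand of GRCm38.p6, with 504 bases between them. Neither hairpin overlaps another gene in the GENCODE vM21 annotation, so both are intergenic there. The nearest other gene is Gm14636, a processed transcript on the same strand, 10009 bases away, and on the other side the pseudogene Gm5383 is 203065 bases away.

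The 4 members differed widely in level. Levels were expressed as CPM, the counts of a miRNA per 1000000 miRNA counts of its library. Over the 8 libraries miR-222-3p had the highest mean, 208 CPM, which ranked 106 of the 697 miRNAs. miR-221-5p followed with 108 CPM at rank 128, miR-221-3p with 63.7 CPM at rank 153, and miR-222-5p with 6.06 CPM at rank 294. miR-222-3p exceeded miR-221-5p in 7 of 8 libraries, with Sham1 the exception, and exceeded miR-221-3p in 8 of 8. Within miR-221 the 5p arm was the more abundant in 8 of 8 libraries, by 1.10 to 2.27 times. Within miR-222 the order was the other way, and the 3p arm had 21.2 to 45.6 times the counts of the 5p arm. Summed, the 4 members made up 0.0359% ± 0.00260 (SD, n = 4) of a sham library and 0.0412% ± 0.00637 (SD, n = 4) of a TAC library, and the groups overlapped (two-sided exact permutation test, p = 0.171, adjusted p = 0.300 over 7 single-value tests). The difference, 0.00536 percentage points, was 0.00224 without TAC1. With clean tags, all cleaned reads of a library, as the denominator it was 0.00636, and with miR-1a-3p taken out of the miRNA total it was 0.00865, each with an unadjusted exact permutation p = 0.0286. miRNA counts were 38.2% to 44.3% of clean tags in sham and 42.3% to 55.1% in TAC. A miRNA with an unchanged share of the miRNA counts would thus be higher per clean tag in TAC on average. miR-1a-3p itself had a mean of 108665 CPM in sham and 158119 CPM in TAC. The miRNAs next to the members in rank were miR-320-3p and miR-365-3p around miR-222-3p, at 214 and 205 CPM, miR-339-3p and miR-199b-5p around miR-221-5p, at 110.4 and 106 CPM, and miR-3102-3p and miR-676-3p around miR-221-3p, at 64.7 and 63.6 CPM. The gaps to these neighbours were smaller than the spread of each neighbour over the 8 libraries, whose SD was 18.1 to 50.0 CPM.

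miR-222-3p was counted 552, 1155, 1065 and 729 times in Sham1 to Sham4 and 1678, 1698, 1273 and 1506 times in TAC1 to TAC4. Divided by the miRNA totals, these counts were 119, 214, 217 and 182 CPM in sham and 305, 218, 201 and 208 CPM in TAC. Sham1 was low and TAC1 high, and the other 6 libraries lay close together across the groups.

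miR-221-3p was counted 375, 259, 298 and 182 times in the sham libraries and 384, 513, 475 and 462 times in the TAC libraries. In CPM these were 81.0, 48.0, 60.7 and 45.4 in sham and 69.7, 65.8, 74.9 and 64.0 in TAC. The TAC libraries were close to each other, while Sham1, the lowest library for miR-222-3p, was the highest of all 8 for miR-221-3p.

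miR-221-5p was counted 624, 541, 516 and 414 times in sham and 680, 759, 521 and 833 times in TAC. Its levels were 135, 100.3, 105 and 103 CPM in sham and 123, 97.3, 82.2 and 115 CPM in TAC, again with Sham1 the highest. miR-222-5p was counted only 16 to 40 times in sham and 36 to 45 times in TAC, so that counting error alone was between 14.9% and 25.0% of a value. Its levels were 5.62, 5.75, 8.15 and 3.99 CPM in sham and 8.17, 5.39, 6.47 and 4.98 CPM in TAC, and the groups overlapped. In CPM by miRNA total none of the 4 members had all TAC libraries above all sham libraries, which 3.59% of the 223 miRNAs with a mean above 100 counts did.

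**Figure D1:**
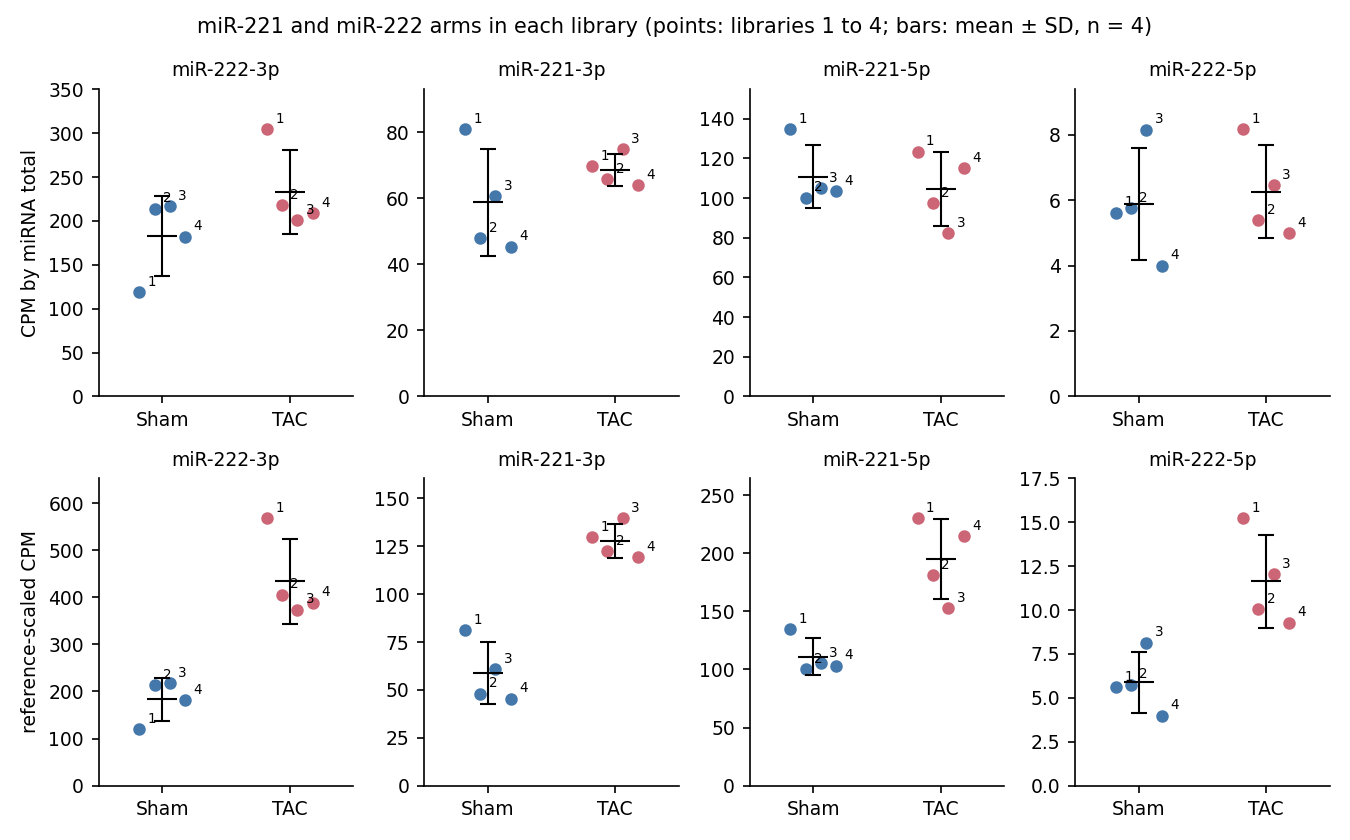
Levels of the 4 miR-221/222 arms in the 8 libraries, in CPM by miRNA total (top) and in CPM with the TAC libraries scaled to the reference miRNAs (bottom); points are libraries numbered 1 to 4 and bars are mean ± SD. The groups overlap for every arm in the top row, and they are fully apart, with TAC the higher, in the bottom row.

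The study used miR-126a-3p, the main endothelial miRNA, and miR-19b-3p, of the miR-17-92 cluster, as its references for scaling. By miRNA total both references were lower in all TAC libraries than in any sham library. miR-126a-3p was at 25759, 43188, 50698 and 36421 CPM in sham and between 20677 and 23630 CPM in TAC, and miR-19b-3p was at 178 to 261 CPM in sham and 92.6 to 138 CPM in TAC. Holding their geometric mean level in the groups divided the TAC values by 0.537, a shift of 0.90 on the log2 scale for every miRNA. In bulk libraries such as these, fewer cells of a type and less RNA per cell cannot be told apart.

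With this reference scaling, all 4 members rose in TAC. miR-222-3p was at 183 ± 45.4 (SD, n = 4) reference-scaled CPM in sham and 434 ± 90.1 in TAC, with a log2 fold change of 1.24 (SE 0.22, 95% interval 0.75 to 1.74, adjusted p = 0.00131, edgeR quasi-likelihood test with Benjamini-Hochberg adjustment over 223 miRNAs). miR-221-3p had 58.8 ± 16.3 (SD, n = 4) reference-scaled CPM in sham and 128 ± 9.04 in TAC, or 1.12 as a log2 fold change (SE 0.20, edgeR adjusted p = 0.00137). miR-221-5p, the arm with the smallest change, went from 111 ± 16.1 to 195 ± 34.5 (SD, n = 4), with a log2 fold change of 0.81 (SE 0.17, edgeR adjusted p = 0.00312), just past the required fold change of 1.7. miR-222-5p was below the mean of 100 counts and was tested among the 409 miRNAs with a mean above 10 counts, where its log2 fold change was 0.97 (SE 0.30, edgeR adjusted p = 0.0231). For each of the 4 members the lowest TAC library exceeded the highest sham library. These calls were common under the same scaling. It called 36.8% of the 223 tested miRNAs higher, 29.8% of the 409 with a mean above 10, and put all TAC libraries above all sham libraries for 54.7% of the 223. The median log2 fold change of the 223 was 0.61, and the fold changes of miR-222-3p and miR-221-3p ranked 17 and 27 among them and that of miR-221-5p 72. When the factor was computed anew in each of the 70 arrangements of the libraries, an exact permutation test gave p = 0.0286 for miR-222-3p and for miR-222-5p, the lowest value possible with groups of 4, and p = 0.0571 for miR-221-3p and for miR-221-5p. With 1 reference factor per library or with miR-126a-3p alone as the reference, miR-221-5p was at 0.73 (edgeR adjusted p = 0.0399) and 0.71 (adjusted p = 0.00791), under the required fold change. It also missed that fold change when Sham2, Sham3 or TAC1 was left out, at 0.68, 0.70 and 0.72 on the log2 scale. miR-222-5p missed the threshold on the edgeR adjusted p without Sham2 (0.0713), Sham4 (0.0516), TAC1 (0.0581) or TAC3 (0.0501).

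The calls depended on the scaling. With TMM, edgeR's normalization that assumes most miRNAs are unchanged, the log2 fold change was 0.56 for miR-222-3p (95% interval 0.063 to 1.06, edgeR adjusted p = 0.123), 0.43 for miR-221-3p (adjusted p = 0.166), 0.13 for miR-221-5p (adjusted p = 0.670) and 0.39 for miR-222-5p (adjusted p = 0.415). With miRNA totals the values were 0.35 for miR-222-3p (95% interval -0.14 to 0.83, edgeR adjusted p = 0.251), 0.22 for miR-221-3p (adjusted p = 0.417), -0.085 for miR-221-5p (adjusted p = 0.739) and 0.078 for miR-222-5p (adjusted p = 0.881). TMM called 5.83% of the 223 miRNAs in either direction and miRNA totals 10.8%, and none of the members was among them. Clean tags are all reads of a library that were left after trimming and cleaning, on miRNAs or not. Scaled by them, miR-222-3p had a log2 fold change of 0.66 (edgeR adjusted p = 0.0590) and miR-221-3p one of 0.57 (adjusted p = 0.0716), and no member was called. The median of all 223 moved with the scaling as well, to 0.052 with clean tags, -0.082 with TMM and -0.29 with miRNA totals. Under each of these scalings miR-222-3p, miR-221-3p and miR-221-5p lay above that median, as they did with the reference scaling. A change of scaling moves all miRNAs by about the same amount, so these are not separate observations. Each library was left out in turn with TMM and with miRNA totals, not with clean tags, and no member was called in these fits. Without Sham1, miR-221-3p was at 0.66 with TMM (edgeR adjusted p = 0.0181, under the required fold change) and 0.42 with miRNA totals, while miR-222-3p was at 0.43 with TMM and 0.19 with miRNA totals. Without TAC1, miR-222-3p was at 0.40 and 0.19. With miRNA totals miR-221-3p was at 0.14 without Sham2 and 0.12 without Sham4. With TMM miR-221-5p was at 0.27 without Sham1, 0.24 without TAC3, 0.079 without Sham2, 0.081 without Sham3 and 0.034 without TAC1, and miR-222-5p was at 0.23 without Sham4. With miRNA totals the values of the 5p arms, close to 0, changed sign. miR-221-5p lay between -0.17 without TAC1 and 0.022 without Sham1 and was at 0.014 without TAC3, and miR-222-5p lay between -0.074 without TAC1 and 0.28 without Sham3 and was at -0.063 without Sham4.

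**Figure D2:**
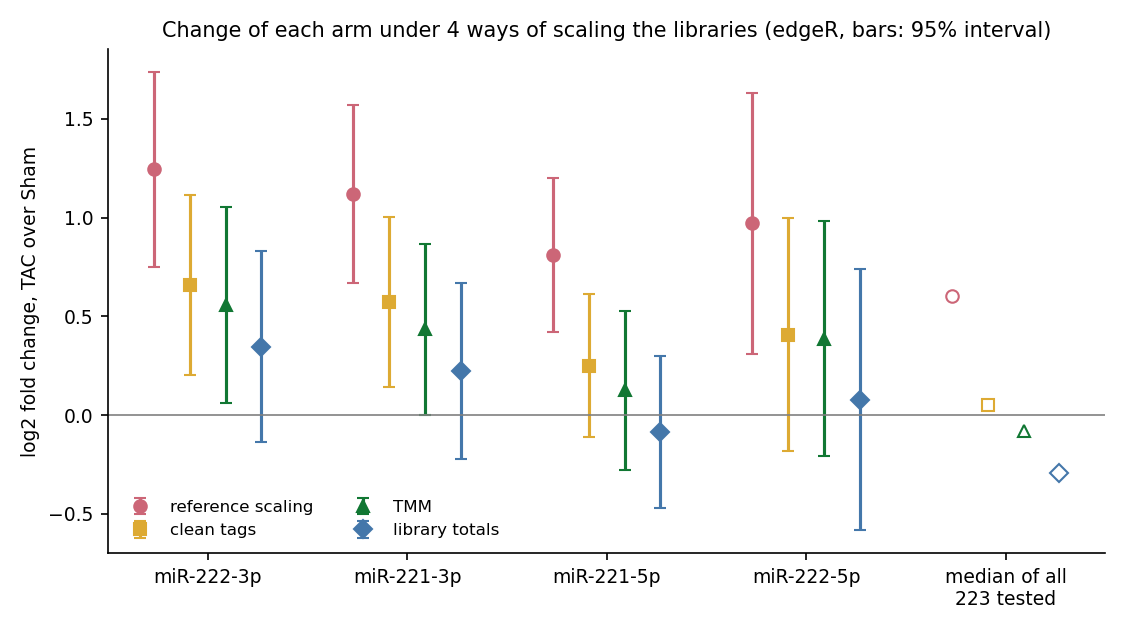
Log2 fold change in TAC over sham of each arm under 4 scalings of the libraries, with the 95% interval from edgeR as bars; open symbols give the median of the 223 miRNAs tested under the same scaling. miR-222-3p moves from 1.24 with the reference miRNAs to 0.35 with miRNA totals, and the median of all tested miRNAs moves from 0.61 to -0.29.

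Ratios of miRNAs within a library do not depend on any scaling between libraries. The ratio of miR-222-3p to miR-221-3p, the partners with the same seed, was 1.47, 4.46, 3.57 and 4.01 in Sham1 to Sham4 and 4.37, 3.31, 2.68 and 3.26 in TAC1 to TAC4. Sham1 had the lowest ratio, and the other 7 libraries overlapped between the groups. The mean log2 ratio was 0.11 higher in TAC than in sham (two-sided exact permutation test, p = 0.914, adjusted p = 0.914), and the difference turned to -0.25 without Sham1 and to -0.020 without TAC1. In Sham1 the 3p arm of miR-221 was high and that of miR-222 low, so the sum of the 3p arms varied less among the sham libraries than miR-222-3p did. The sums were 200.3, 262, 278 and 227 CPM in sham and 374, 283.5, 276 and 272 CPM in TAC. Sham1 was also the sham library with the lowest miR-126a-3p level. Whether that has a part in its ratio was not tested.

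The arms of miR-221 were in a more even balance in TAC3 than elsewhere. The 5p arm had 1.66, 2.09, 1.73 and 2.27 times the counts of the 3p arm in Sham1 to Sham4 and 1.77, 1.48, 1.10 and 1.80 times in TAC1 to TAC4. The log2 ratio of 3p to 5p was 0.35 higher in TAC, but the groups overlapped (two-sided exact permutation test, p = 0.171, adjusted p = 0.300). Without TAC3 the difference was 0.20. The ratio of the arms of miR-222 overlapped too, with a mean log2 ratio of 3p to 5p of 4.94 ± 0.48 (SD, n = 4) in sham and 5.21 ± 0.19 in TAC (exact permutation test, p = 0.343, adjusted p = 0.48). The difference of 0.27 was 0.081 without Sham1 and 0.44 without Sham4. The low counts of miR-222-5p gave that log2 ratio a counting error of 0.22 to 0.36 per library.

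**Figure D3:**
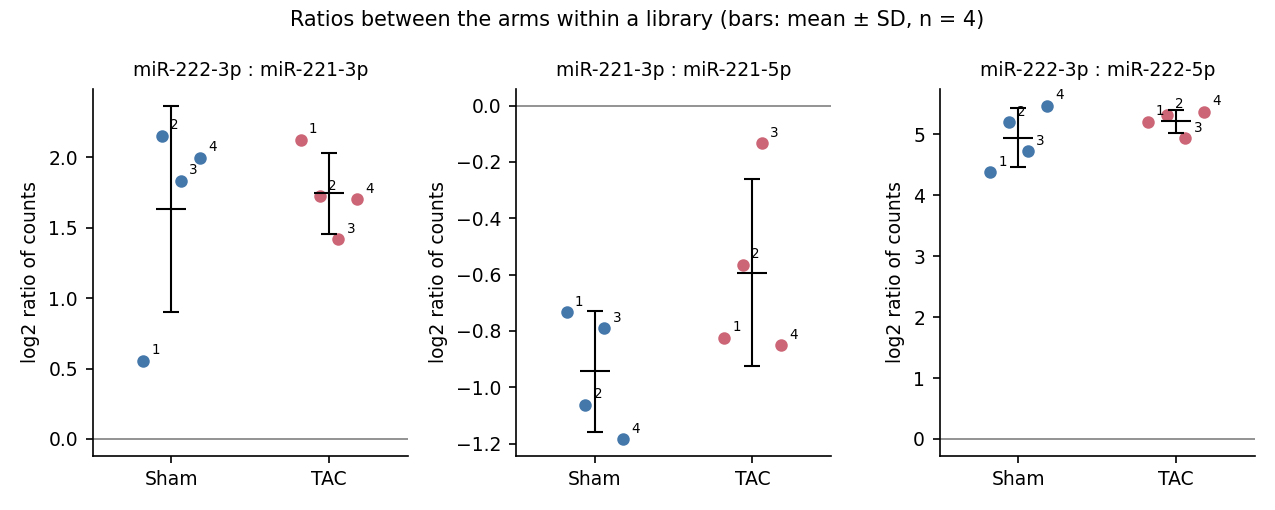
Log2 ratios of counts between members within each library; points are libraries numbered 1 to 4, bars are mean ± SD and the grey line marks equal counts. The groups overlap in all 3 panels, and Sham1 has the lowest ratio of miR-222-3p to miR-221-3p, 0.56 on the log2 scale.

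The 3p arms were then set against miRNAs of the cell types that a cardiomyocyte isolation can hold. The ratio of their summed counts to miR-126a-3p separated the groups, with all TAC libraries the higher and a mean log2 difference of 1.07 (two-sided exact permutation test, p = 0.0286, adjusted p = 0.100). So did the ratio to miR-143-3p, a smooth muscle miRNA, with a difference of 0.42 (exact permutation test, p = 0.0286, adjusted p = 0.100). Neither passed after adjustment over the 7 tests, although 0.0286 is the lowest exact p possible with groups of 4. miR-126a-3p is also a scaling reference, so the first ratio is not independent of the reference scaling. By miRNA total the summed 3p arms had a mean log2 difference of 0.32 with overlapping groups. That of miR-126a-3p was -0.75, with all TAC libraries below all sham libraries. Against miR-1a-3p, the main cardiomyocyte miRNA and the most abundant miRNA of that list, the difference was -0.21 with overlapping groups (exact permutation test, p = 0.486, adjusted p = 0.567). That difference was -0.44 without TAC1, -0.32 without Sham4, -0.14 without TAC3, -0.078 without Sham3 and -0.069 without TAC4.

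Taken singly, miR-222-3p had 46.3, 49.6, 42.8 and 50.0 counts per 10000 counts of miR-126a-3p in Sham1 to Sham4 and 131, 97.3, 85.0 and 101 in TAC1 to TAC4. The sham libraries stayed within 1.17 times of each other although their miR-126a-3p levels differed more. miR-221-3p had 31.5, 11.1, 12.0 and 12.5 counts per 10000 of miR-126a-3p in sham and 30.0, 29.4, 31.7 and 30.9 in TAC. Sham1 thus lay at the level of the TAC libraries, and the other 3 sham libraries lay below all of them. All TAC libraries were above all sham libraries in the ratio to miR-126a-3p for miR-222-3p and miR-222-5p and not for the arms of miR-221. The same separation was seen for 23.9% of the other 222 tested miRNAs against miR-126a-3p and for 4.95% against miR-143-3p, and against miR-143-3p no single member showed it.

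**Figure D4:**
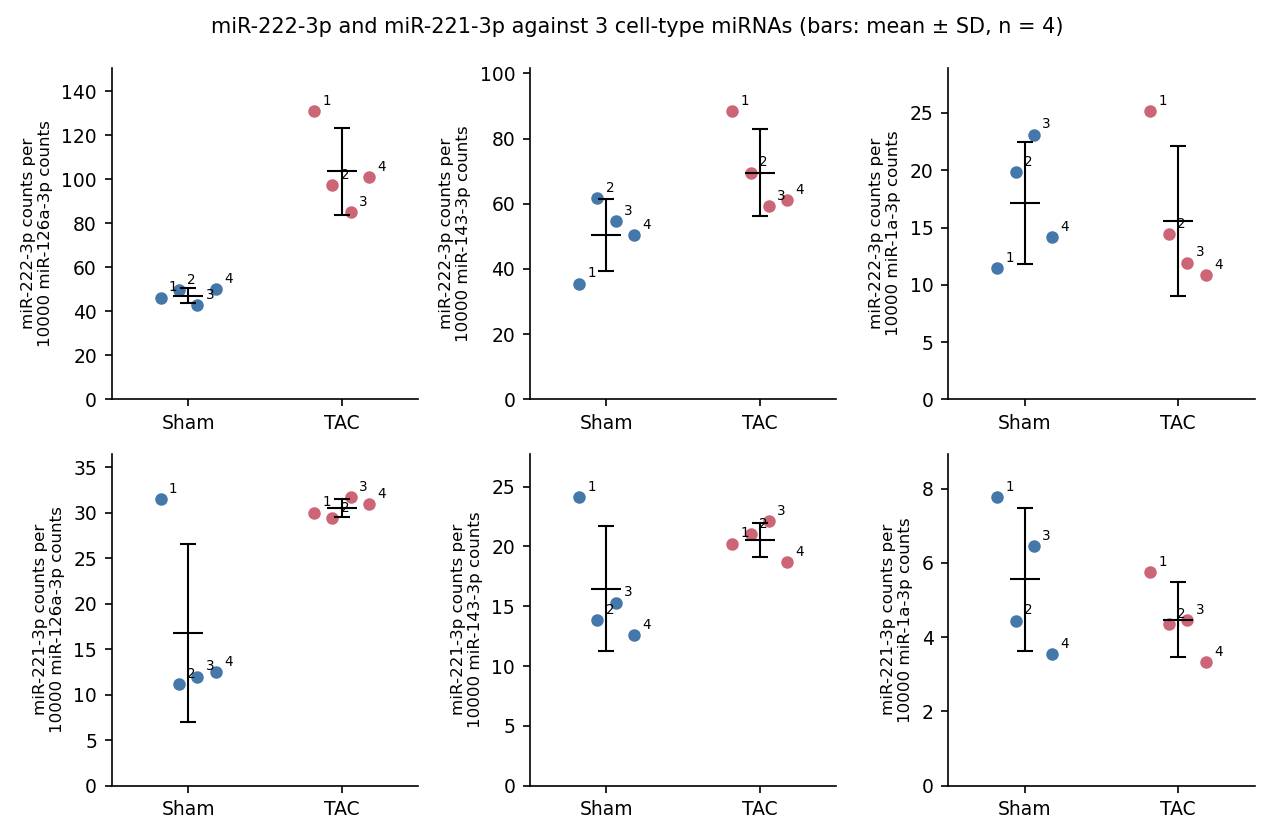
Counts of miR-222-3p (top) and miR-221-3p (bottom) per 10000 counts of an endothelial (miR-126a-3p), a smooth muscle (miR-143-3p) and a cardiomyocyte miRNA (miR-1a-3p) in each library; points are libraries numbered 1 to 4 and bars are mean ± SD. Against miR-126a-3p, miR-222-3p is at 42.8 to 50.0 in sham and 85.0 to 131 in TAC, and Sham1 is the sham library at the TAC level for miR-221-3p. By miRNA total miR-126a-3p itself is lower in all TAC libraries than in any sham library.

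The libraries are labelled as cardiomyocytes, and cardiomyocyte miRNAs had the highest sum of the 6 marker lists, with miRNAs of vessels next. The 5 cardiomyocyte miRNAs (miR-1a-3p, miR-133a-3p, miR-208a-3p, miR-208b-3p and miR-499-5p) summed to 177299 ± 16433 CPM in sham and 222021 ± 21213 in TAC (SD, n = 4). The groups overlapped, with Sham1 at 198133 CPM and TAC1 at 194455 CPM. The endothelial arms miR-126a-3p and miR-126a-5p summed to 49248, 65606, 72051 and 53295 CPM in sham and to 33813, 33782, 34557 and 29274 CPM in TAC, so that the highest TAC library was below the lowest sham library. The 4 smooth muscle miRNAs, of which miR-143-3p was the most abundant, summed to 41175 ± 2915 CPM in sham and 37848 ± 1741 in TAC with overlap. The fibroblast miRNAs (miR-199a and miR-214 arms) summed to 7028 ± 944 and 5599 ± 1463 CPM, the leukocyte miRNAs to 4025 ± 839 and 3066 ± 226, and the erythroid miRNAs to 962 ± 444 and 330 ± 249. Each of these sums overlapped between the groups. No marker in these lists was at 0 in all libraries. The part of these cells in the changes of the 4 members was not tested.

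With the reference scaling 4 of the 5 cardiomyocyte miRNAs were called higher, led by miR-208b-3p (log2 fold change 1.71). Also called were 2 of 4 smooth muscle miRNAs and 1 of 5 tested leukocyte miRNAs, miR-155-5p (1.06), beside 36.8% of all 223. Others passed on edgeR adjusted p but not on fold change. They were miR-208a-3p (0.62, adjusted p = 0.00915), miR-143-5p (0.74, 0.00298), miR-145a-5p (0.47, 0.0373) and miR-146a-5p (0.70, 0.00432). None of the 3 fibroblast miRNAs was called. Their log2 fold changes were 0.57, 0.58 and 0.60, under the required fold change, with edgeR adjusted p from 0.0271 to 0.0398. The 2 tested erythroid miRNAs, at -0.54 and -0.70, were not called. The endothelial arms were not called either, at 0.10 for miR-126a-3p and -0.12 for miR-126a-5p, but miR-126a-3p is a reference of this scaling, which holds it near 0, and the value is no test of it. With miRNA totals none of the cardiomyocyte, smooth muscle, fibroblast, erythroid or leukocyte miRNAs was called in either direction. Among them miR-1a-3p was at 0.54 (edgeR adjusted p = 0.0318), under the required fold change. The erythroid miR-451a and miR-144-3p were at -1.44 and -1.60 (edgeR adjusted p = 0.129 and 0.110). The 5 tested leukocyte miRNAs lay between -0.96 for miR-223-3p and 0.16 for miR-155-5p. Both endothelial arms fell, miR-126a-3p by 0.80 and miR-126a-5p by 1.02 on the log2 scale (edgeR adjusted p = 0.0134 and 0.00158). Of 25 other miRNAs known from vessels and angiogenesis, 20 were tested, of which 5 rose and none fell, beside 36.8% called higher among all 223. The 20 include both scaling references. The 5 were miR-27b-3p (log2 fold change 1.26) and miR-23b-3p (1.14), which are encoded together, miR-24-3p (1.12), miR-155-5p and miR-143-3p (0.79). Their list had a median log2 fold change of 0.49, beside 0.61 over all 223 tested miRNAs. Of the miR-17-92 cluster, 4 members were tested and none was called. They were miR-20a-5p at -0.38 (edgeR adjusted p = 0.294), miR-17-5p at 0.057 (adjusted p = 0.825), miR-92a-3p at 0.33 (adjusted p = 0.0376) and miR-19b-3p, which is itself a scaling reference, at -0.10 (adjusted p = 0.632). With miRNA totals none of the 20 rose and 8 fell, with a median of -0.41 beside -0.29 for all tested, of which 10.3% were called lower. The fold change of miR-222-3p, 1.24, exceeded those of all of them but miR-27b-3p.

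Other miRNAs of the X chromosome were taken from RefSeq. It placed all hairpins of 61 other listed miRNAs there, among them miR-224-3p, which had no count in any library. Of the 61, 17 were tested. With the reference scaling 3 of them rose, miR-98-5p (log2 fold change 1.23), miR-1198-5p (1.03) and miR-361-5p (0.81), and none fell, beside 36.8% called higher among all 223. The median of the 17 was 0.22, beside 0.61 over all 223. The lowest value, -0.30, was that of miR-503-5p, which is encoded next to miR-322 (edgeR adjusted p = 0.268). With miRNA totals none of the 17 rose and 5 fell, with a median of -0.67 beside -0.29 for all tested, of which 10.3% were called lower.

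Across the 8 libraries the members did not have each other as nearest neighbours. Likeness was taken as the SD of the log2 count ratio to a member, where a small SD means that the 2 miRNAs keep one ratio. Both counts of a ratio come from the same library, and the 8 libraries fall into 2 groups that add to the SD, so these values are descriptions. For miR-222-3p the closest of 222 miRNAs were miR-128-3p (SD 0.12), miR-1249-3p (0.19) and miR-28a-5p (0.19), while miR-221-5p ranked 74 and miR-221-3p 103 (SD 0.52). For miR-221-3p they were miR-98-5p (0.13), a let-7 family miRNA also on the X chromosome, miR-22-5p (0.13) and miR-149-5p (0.16), while miR-221-5p ranked 33 and miR-222-3p 131. For miR-221-5p they were miR-148a-3p (0.13), let-7i-5p (0.16) and miR-744-5p (0.16), and for miR-222-5p miR-378a-5p (0.22), miR-345-5p (0.23) and miR-1839-5p (0.23). Without Sham1 the SD between miR-222-3p and miR-221-3p fell to 0.26. From miR-221-3p, miR-222-3p then ranked 29 and miR-221-5p 57. From miR-222-3p, miR-221-3p ranked 56 and miR-221-5p moved from 74 to 22. From miR-221-5p, miR-222-3p moved from rank 164 (SD 0.48) to rank 14 (SD 0.19) and miR-221-3p from 67 to 109. The closest miRNA without Sham1 was miR-486a-5p for miR-222-3p, miR-22-5p for miR-221-3p and miR-140-5p for miR-221-5p, each another miRNA than with all 8 libraries. The ratio of miR-222-3p to miR-126a-3p had an SD of 0.10 in the 4 sham libraries (rank 4 of 222), 0.26 in the 4 TAC libraries (rank 87) and 0.63 over all 8 (rank 150). For miR-221-3p and miR-126a-3p the SD was 0.71 in sham (rank 194), 0.048 in TAC (rank 2) and 0.71 over all 8 (rank 187). These 2 pairs were singled out after their values were seen.

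**Figure D5:**
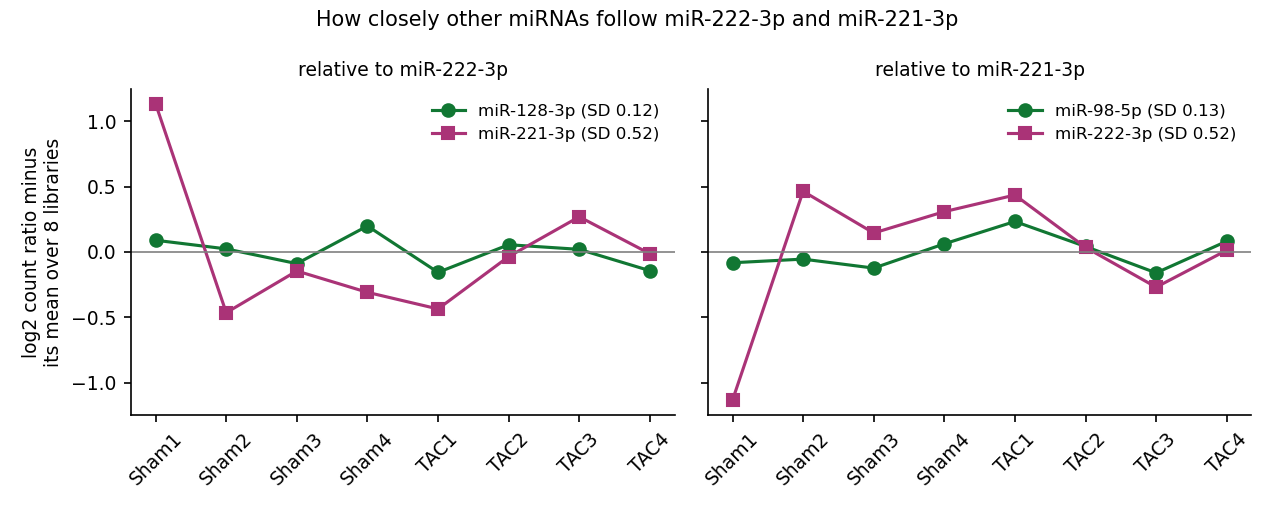
Log2 count ratio of other miRNAs to miR-222-3p (left) and to miR-221-3p (right) in each library, with its mean over the 8 libraries subtracted; a flat line means a constant ratio. miR-128-3p stays flat against miR-222-3p (SD 0.12) and miR-98-5p against miR-221-3p (SD 0.13), while the ratio between miR-221-3p and miR-222-3p departs mostly in Sham1 (SD 0.52).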

How the data were processed

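The authors deposited 1 table of counts for each of 8 small RNA libraries, with whole-number tag counts per mature miRNA and no normalization. The submitters' notes name mm10 and StringTie 1.3.1; the miRNA aligner, reference and treatment of tags that match several miRNAs are not given in the sources used here. Counts were tested with edgeR 4.0.16 (R 4.3.3; quasi-likelihood F test, Benjamini-Hochberg) over miRNAs with a mean above 100 counts and called where the adjusted p was under 0.05 and the fold change over 1.7. Library sizes were miRNA totals, multiplied in TAC by 0.537, the TAC-to-sham factor of miR-126a-3p and miR-19b-3p. Ratios had 0.5 counts added and were compared by two-sided exact permutation over 70 arrangements. The tests were also tried on simulated data, from which no value is given here. The alternatives were other scalings, DESeq2 1.42.0, other filters and fold changes, a replicate block and each library left out. The likeness without Sham1, single members per marker miRNA and the permutation with the factor anew were added after seeing the data. Members and lists were chosen with earlier results of these data known. Named miRNAs were the members, the references, the lists, rank neighbours, X-linked extremes and the 3 closest miRNAs. Sequences are from RefSeq. Python 3.11.15 made the remaining values.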

Additional observations from a re-analysis of the deposited data

Results flagged for a closer look

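Single libraries were compared with the other 3 of their group by Dixon's ratio, the gap to the nearest library over the range of the group. Of 24 groups tested, 3 held a library past the 95% critical value for 4 samples, where chance gives about 1 in 20. In CPM by miRNA total, TAC1 was far above the other TAC libraries for miR-222-3p, at 305 CPM, and for the sum of miR-221-3p and miR-222-3p, at 374 CPM, values that share the miR-222-3p counts. Sham1 was far above the other sham libraries for miR-221-5p, at 135 CPM.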

How the results depend on the processing

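With TMM, miRNA totals, clean tags and DESeq2 with its own size factors, in that order, the log2 fold change was 0.43, 0.22, 0.57 and 0.48 for miR-221-3p, 0.13, -0.085, 0.25 and 0.17 for miR-221-5p, 0.56, 0.35, 0.66 and 0.60 for miR-222-3p, and 0.39, 0.078, 0.41 and 0.35 for miR-222-5p, none of them called; miR-222-3p had an adjusted p of 0.0350 with DESeq2 at a fold under 1.7. These settings called 3, 1, 5 and 5 miRNAs higher and 10, 23, 5 and 9 lower, in place of 82 and 2. The fold of miR-221-5p missed 1.7 with 1 factor per library (0.73) and with miR-126a-3p alone (0.71). With miR-19b-3p alone 1 miRNA was called lower. Without a filter on counts 127 were called higher. Over the 223 tested miRNAs, 43 were called higher at a fold above 2 and 142 by adjusted p alone. The difference in the members' share was 0.00636 percentage points of clean tags and 0.00865 of the miRNA total without miR-1a-3p (exact permutation p = 0.0286 each, unadjusted). Leaving out each library gave 0.95 to 1.43 for miR-221-3p, 1.09 to 1.35 for miR-222-3p, 0.68 to 1.04 for miR-221-5p and 0.82 to 1.12 for miR-222-5p, with 59 to 106 miRNAs called higher and 1 to 2 lower. miR-221-5p lost its call on fold without Sham2 (0.68), Sham3 (0.70) or TAC1 (0.72), and miR-222-5p on adjusted p without Sham2 (0.0713), Sham4 (0.0516), TAC1 (0.0581) or TAC3 (0.0501). The study's methods describe the mice as 4 sham and TAC pairs, but the labels do not say that equal numbers mark a pair. The deviations of same-numbered libraries correlated with mixed sign across miRNAs (r = 0.17, -0.37, 0.31 and -0.22 for numbers 1 to 4). Sham3 and TAC3 each matched their own number best, as did TAC1, and the other libraries did not. The numbers were therefore not taken as pairs, and pairing was not settled. With the replicate block the log2 fold changes were 1.16, 0.81, 1.25 and 0.99 for miR-221-3p, miR-221-5p, miR-222-3p and miR-222-5p, with 76 miRNAs called higher and 3 lower. Paired by number, exact tests of the ratios of the summed 3p arms to miR-126a-3p and to miR-143-3p gave p = 0.125 each. That is the lowest p possible with 4 paired differences. The counts of miR-222-5p limit its precision, and p-values rest on 4 mice a group.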
